A study of Mus musculus with 2 samples.

Results

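The acute-phase-high cells are 179 of the 1191 cells that passed the quality filter in a single-cell library of mouse hepatocytes grown in expansion medium, and 179 of 2436 filtered cells over both libraries of the study. They are the top 15% of the expansion cells by 1 value, the summed transcripts of Saa1, Saa2, Orm1 and Orm2 as a share of all transcripts of the cell. The other 1012 expansion cells are the comparison. Transcripts were counted as unique molecular identifiers (UMIs), and a filtered cell had at least 500 genes with a UMI and at most 25% of its UMIs from mitochondrial genes.

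Primary hepatocytes from C57BL/6 liver, the cells that make most plasma proteins, were grown inside growth-factor reduced matrigel, a basement membrane gel. The expansion medium held the GSK3 inhibitor CHIR99021 at 3 uM and the cytokine TNFa at 100 ng/mL. A second library came from an induction medium with neither of these and with 3 uM of the glucocorticoid dexamethasone. Both media held EGF at 25 ng/mL and HGF at 50 ng/mL, 10 uM of the ROCK inhibitor Y27632, 1 uM of the TGF-beta receptor inhibitor A83-01 and 100 mM nicotinamide, with N-acetylcysteine and the B27 and N2 supplements. The labels give 1 library per medium and no number of animals, so no value below has a replicate check, no test was made, and every interval covers counting error only. Cells of 1 library are not replicates.

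The acute phase response is the change in liver secretion during inflammation. Cytokines of the IL-6 family act through STAT3, and interleukin 1 and TNF act through NF-kB; with C/EBP factors these switch on genes of secreted proteins such as serum amyloid A, orosomucoid, haptoglobin and fibrinogen. Plasma proteins such as albumin and transthyretin are known to fall in the same response.

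The members of the rule lie in pairs. Saa1 (chr7:46740497-46742980, minus strand) and Saa2 (chr7:46751790-46754313, plus strand) encode the serum amyloid A proteins that travel with high-density lipoprotein. Orm1 (chr4:63344560-63348163) and Orm2 (chr4:63362449-63365878), both on the plus strand, encode orosomucoid, a glycoprotein that carries small molecules in plasma. Saa3 (chr7:46711998-46715700, minus strand), in the same cluster as Saa1 and Saa2, was not in the rule. These positions are from GENCODE M21 on GRCm38, the assembly that mm10 denotes. The copies within a pair are alike, so the split of UMIs between Saa1 and Saa2, or between Orm1 and Orm2, is uncertain.

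The 250 bases before the start of 5 of the genes that the results turn on are shown here, because these genes were high in the same cells, 3 of them by the rule. The start is that of the RefSeq entry. For Saa2 and Saa3 it lies inside the GENCODE span given above, so part of each of these windows overlaps that span. The sequences are from RefSeq on GRCm38.p6: Saa1 is chr7:46742981-46743230 (minus strand), Saa2 is chr7:46751583-46751832 (plus), Orm2 is chr4:63362199-63362448 (plus), Saa3 is chr7:46715677-46715926 (minus) and Lcn2 is chr2:32387740-32387989 (minus). All are written 5′ to 3′ on the strand of the gene, and capitals mark matches to the motifs searched on both strands.
Saa1: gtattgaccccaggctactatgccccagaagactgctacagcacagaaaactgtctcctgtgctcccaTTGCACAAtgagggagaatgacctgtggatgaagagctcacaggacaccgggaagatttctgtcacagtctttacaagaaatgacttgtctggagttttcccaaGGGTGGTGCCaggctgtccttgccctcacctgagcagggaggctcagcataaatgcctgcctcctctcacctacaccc
Saa2: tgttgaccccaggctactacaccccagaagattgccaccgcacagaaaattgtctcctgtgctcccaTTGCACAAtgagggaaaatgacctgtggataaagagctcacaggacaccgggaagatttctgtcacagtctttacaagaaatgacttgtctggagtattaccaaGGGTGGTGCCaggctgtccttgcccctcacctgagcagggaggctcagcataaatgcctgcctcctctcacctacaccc
Orm2: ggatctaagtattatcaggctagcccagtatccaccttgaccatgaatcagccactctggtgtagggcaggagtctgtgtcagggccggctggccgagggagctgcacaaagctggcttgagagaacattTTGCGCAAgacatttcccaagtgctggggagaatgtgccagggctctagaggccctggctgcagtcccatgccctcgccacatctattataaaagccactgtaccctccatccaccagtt
Saa3: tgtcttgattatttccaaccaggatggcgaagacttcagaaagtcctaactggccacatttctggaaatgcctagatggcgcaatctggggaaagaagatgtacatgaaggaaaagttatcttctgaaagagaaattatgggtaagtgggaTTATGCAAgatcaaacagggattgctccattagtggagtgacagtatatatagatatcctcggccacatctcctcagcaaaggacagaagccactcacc
Lcn2: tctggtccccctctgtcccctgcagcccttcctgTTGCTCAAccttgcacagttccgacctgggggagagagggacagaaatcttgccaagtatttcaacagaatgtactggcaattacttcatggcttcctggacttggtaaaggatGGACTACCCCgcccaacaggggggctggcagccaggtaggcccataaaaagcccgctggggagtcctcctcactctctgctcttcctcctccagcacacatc

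The motif searched for C/EBP was TTGCNNAA, the one for NF-kB was GGG and CC with any 5 bases between them, and the one for STAT was TTCNNNGAA. The C/EBP letters begin 182 bases before the start in Saa1, 183 in Saa2, 120 in Orm2, 99 in Saa3 and 216 in Lcn2. The NF-kB letters begin 78 bases before the start in Saa1, 79 in Saa2 and 102 in Lcn2. The STAT letters are in none of these 5 windows. Windows of Saa4, Lrg1, Tmsb4x and Cdkn1a were searched too and are not printed. Saa4 held the C/EBP and NF-kB letters, Lrg1 the NF-kB letters only, and Tmsb4x none of the motifs. Cdkn1a, a gene lower in the acute-phase-high cells, held the NF-kB letters in a window and no C/EBP letters. Among 32851 promoter windows of the same length, 9.56% hold the C/EBP letters, 45.8% the NF-kB letters and 7.02% the STAT letters. Of 19 acute phase genes outside the rule with a window, Saa3 and Lcn2 among them, 10 hold the C/EBP letters, 12 the NF-kB letters and 6 the STAT letters. A gene was counted here if any of its windows matched, whereas the 32851 are single windows. The shares are therefore not on the same base, and their difference was not tested. The Saa1 and Saa2 windows are 94.8% identical, with 238 identical positions, 11 mismatches and 2 gap positions. A match describes the letters only.

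The acute-phase-high cells were the upper end of a continuous range. Their share of UMIs from the 4 genes was 0.301% at the lowest, 0.563% at the median and 3.38% at the highest. In the other cells the share was 0 at the lowest, 0.0237% at the median and 0.298% at the highest, and 38 of them had no UMI of the 4 genes. The last 3 cells inside the threshold had 0.307%, 0.305% and 0.301%, and the first 3 outside had 0.298%, 0.297% and 0.295%. No gap separated the sets: 31 members and 32 other cells lay within 20% of the threshold, and 119 other cells lay above 0.5 times the threshold. The members held 71.8% of all UMIs of the 4 genes in the library.

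**Figure D1:**
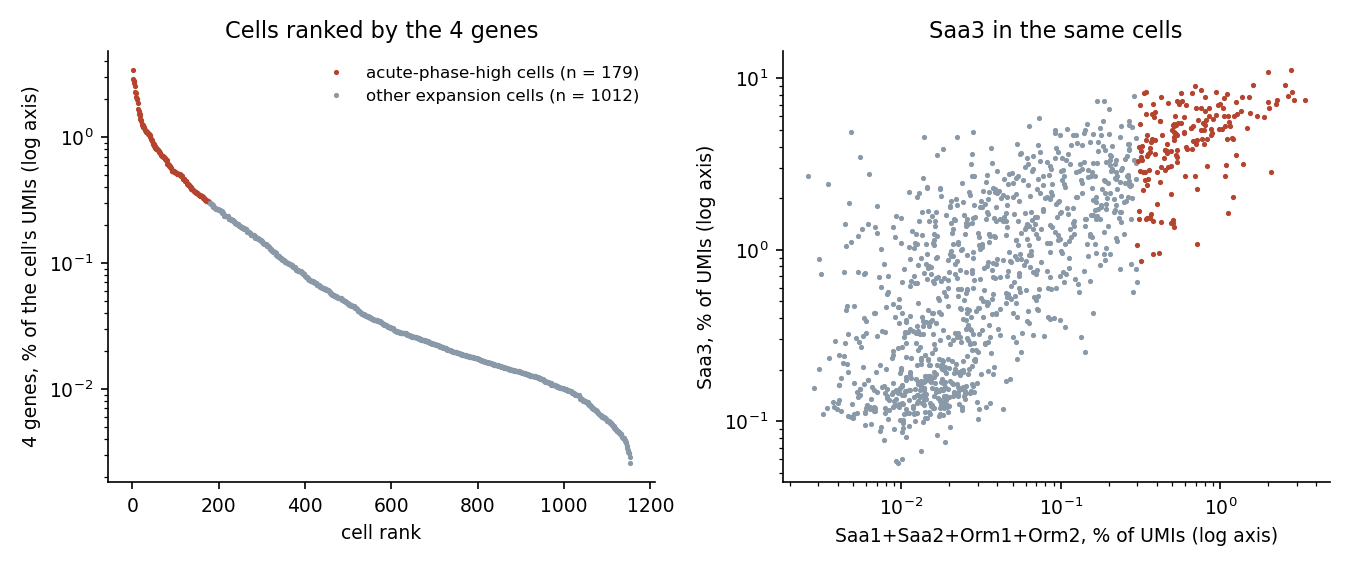
The left plot shows each expansion cell with at least 1 UMI of the 4 genes, ranked by their share of the cell's UMIs (log axis), and the right plot sets that share against the share of Saa3 (both axes log). The 179 acute-phase-high cells run from 0.301% to 3.38% with no break from the 1012 other cells, and they lie in the upper part of the Saa3 range.

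Depth was alike in the sets. The acute-phase-high cells had a median of 23555 UMIs and 3709 genes per cell, against 23124.5 UMIs and 3875 genes in the other cells. Mitochondrial genes gave a median of 6.34% of UMIs in the acute-phase-high cells and 6.32% in the other cells. Ribosomal protein genes differed more, with 25.2% of all UMIs in the acute-phase-high cells and 34.5% in the other cells. Levels below are UMIs summed over the cells of a set divided by all their UMIs and scaled to CPM (counts per 1000000), from 4430815 UMIs in the acute-phase-high cells and 24959185 in the other cells, and a log2 ratio is the CPM of acute-phase-high cells over that of other cells. A limit of 3 UMIs, which a count of 0 allows, is 0.677 CPM in the acute-phase-high cells and 0.12 CPM in the other cells.

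The 4 genes that chose the cells are described without a test. Per 10000 UMIs of a cell, Saa1 had 0 at the lowest, 30.6 at the median and 169 at the highest in the acute-phase-high cells, against 0, 1.25 and 23.1 in the other cells. Orm1 had 0, 15.6 and 72.6 in the acute-phase-high cells, against 0, 0.5 and 21.1 in the other cells. The sets overlap for each gene alone: 124 members lay above the highest other cell for Saa1, 56 for Orm1, 45 for Saa2 and 43 for Orm2. In CPM, Saa1 was at 3824 in the acute-phase-high cells and 284 in the other cells, Saa2 at 1484 and 65.2, Orm1 at 1764 and 146, and Orm2 at 551 and 36.0.

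The Saa and Orm pairs were high in many of the same cells, but not in fixed proportion. Most members, 156, had more Saa1 and Saa2 than Orm1 and Orm2 UMIs, and 23 had more of the Orm pair. The Saa pair made up 57.0% of the 4 genes at the lower quartile of members, 70.3% at the median and 82.0% at the upper quartile, with a full range of 0 to 100%. Across the 1191 cells the shares of the pairs had a Spearman rho of 0.53, and within the 179 members 0.29; both share a cell's total as their base, and they are given as descriptions.

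Choosing cells by one pair and reading the other gives values that the choice did not use. The top 15% by the Saa pair alone had 2086 CPM of Orm1 and Orm2, against 233 CPM in the rest, which is 8.97-fold. The top 15% by the Orm pair alone had 4474 CPM of Saa1 and Saa2, against 475 CPM, which is 9.42-fold. These choices shared 117 of 179 cells, 65.4% of each. When each UMI of a cell was sent at random to either of 2 subsets, 162 cells (90.5%) were in the top 15% of both subsets. Cells chosen on one subset had Saa1 at 3775 CPM in the other subset, against 291 CPM in the rest. Both subsets hold the same cells, and Saa1 is a gene of the rule. The split therefore describes only how UMI sampling affects the choice.

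A gene outside the rule was counted as higher or lower when its CPM differed at least 1.5-fold, the 95% counting interval of the ratio left out 1, and the gene reached 10 CPM in the set where it was higher. Of 6689 genes tested, 428 were higher in the acute-phase-high cells, which is 6.4%, and 820 were lower, which is 12.3%. The median log2 ratio of all genes tested was −0.14, and relative to it 662 genes were higher and 482 lower. Higher genes were 34.3% of all that differed on total UMIs, 57.9% relative to the median gene, and 44.9% when the 4 genes and Saa3 were left out of the totals. With mitochondrial and ribosomal protein genes left out of the totals, 279 genes were higher and 2338 lower, and higher genes were 10.7%. Saa3 alone took 4.93% of UMIs in the acute-phase-high cells and 1.16% in the other cells; the part of these shares in the counts was not tested.

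Among genes of 50 CPM or more in the set where they were higher, Wfdc21 had the largest ratio. It encodes a small secreted protein with a protease inhibitor-like fold, and was at 1120 CPM in the acute-phase-high cells and 167 CPM in the other cells, a log2 ratio of 2.74 with an interval of 2.68 to 2.80. Per 10000 UMIs it had a median of 9.83 in the acute-phase-high cells and 0.45 in the other cells, and 171 of 179 members lay above the median of the other cells. Spp2, a secreted phosphoprotein, followed at that level with a log2 ratio of 2.25, and Kng1, the precursor of bradykinin, with 2.21. Fabp1, the fatty acid binding protein of liver, was at 1755 CPM in the acute-phase-high cells and 418 CPM in the other cells, a log2 ratio of 2.07. Ang, a secreted ribonuclease, had a ratio of 2.00, and the enzymes Cyp2d26 and Fmo1 had ratios of 2.05 and 1.89. Gchfr, a regulator of tetrahydrobiopterin synthesis, had 1.92, and Apof, an apolipoprotein, 1.82. The other 3 of the 12 largest were Saa3, Saa4 and Itih3, which belong to the acute phase list.

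Acute phase genes outside the rule were high in the same cells. Of 26 listed, 20 were tested; 18 were higher and 0 lower, against 6.4% and 12.3% of all genes tested, and their median log2 ratio was 1.01. Saa3, a serum amyloid A that is also made outside the liver, had 85.8 UMIs per 10000 at the lowest, 470 at the median and 1113 at the highest in the acute-phase-high cells, against 5.72, 59.2 and 791 in the other cells. Every member lay above the median of the other cells, and 14 lay above the highest of them, so the ranges overlap. Its level was 49254 CPM in the acute-phase-high cells and 11641 CPM in the other cells, a log2 ratio of 2.08 (2.07 to 2.09).

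Lcn2, lipocalin 2, which binds bacterial iron carriers, was at 11634 CPM in the acute-phase-high cells and 4732 CPM in the other cells, a log2 ratio of 1.30. Its highest value per 10000 UMIs was 255 in the acute-phase-high cells and 264 in the other cells, so no member exceeded the other cells' range. Hp, haptoglobin, which binds free hemoglobin, was at 25606 and 13351 CPM (ratio 0.94), and Hpx, hemopexin, which binds heme, was at 8597 and 4620 CPM (0.90), each with the acute-phase-high cells first. The fibrinogen chains Fga, Fgb and Fgg had ratios of 0.94, 0.90 and 1.24. Apcs, the pentraxin serum amyloid P, had 1.53 and Lbp, which carries bacterial lipopolysaccharide, 1.36.

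The list also held genes that did not differ by the rule. Crp, the C-reactive protein that is a weak acute phase protein in mouse, was at 74.5 CPM in the acute-phase-high cells and 75.4 CPM in the other cells, a ratio of −0.02 (−0.19 to 0.15). Il1rn, the interleukin 1 receptor antagonist, had a ratio of 0.34. A further 6 genes were under 10 CPM in both sets: A2m was at 8.35 and 2.72 CPM, Orm3 at 2.26 and 0.2 CPM, Serpina3n had 1 UMI in each set, and Serpina3g, Serpina3k and Serpina3m had 0 UMIs in both.

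**Figure D2:**
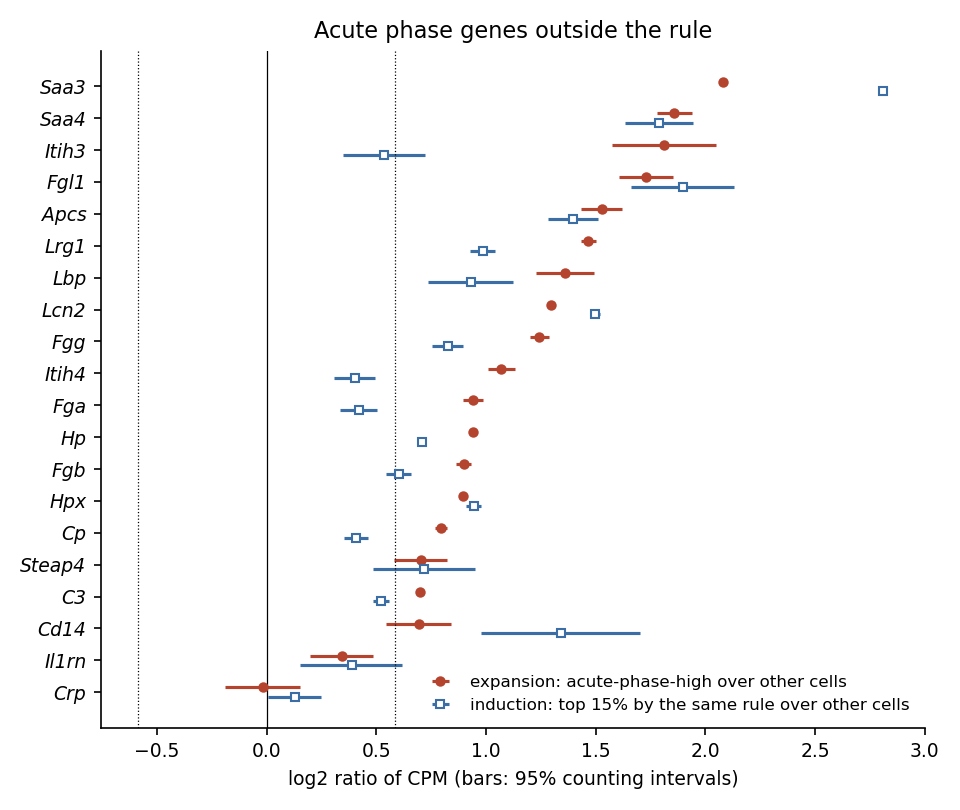
The log2 ratio of CPM is plotted for the 20 tested acute phase genes outside the rule, as filled circles for acute-phase-high over other expansion cells and as open squares for the top 15% by the same rule over other cells of the induction library. Horizontal bars are 95% counting intervals and dotted lines mark 1.5-fold. Saa3 stands at 2.08 in expansion and 2.81 in induction, and Crp lies near 0 in both.

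Genes of plasma proteins known to fall in the acute phase response were higher as well. Of 9 listed, 8 were tested; 6 were higher and 0 lower, with a median log2 ratio of 0.87. Alb, albumin, was at 3759 CPM in the acute-phase-high cells and 1378 CPM in the other cells, a ratio of 1.45 (1.42 to 1.47). Ttr, the transthyretin that carries thyroid hormone, had 0.94, Trf, the iron carrier transferrin, 0.80, and Apoa1, the main protein of high-density lipoprotein, 0.71. Ahsg, fetuin A, had 0.10 and Serpina6, the corticosteroid carrier, −0.53, and neither met the rule.

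Other plasma protein genes moved in the same direction. Of 16 coagulation genes tested, 12 were higher and 0 lower, with a median log2 ratio of 1.13; Plg, the plasmin precursor, had 2.60 and F2, prothrombin, 1.14. Of 15 complement genes tested, 10 were higher and 1 lower, with a median of 0.94; C8g and C9, parts of the membrane attack complex, had 2.20 and 1.75. Of 21 other secreted proteins of hepatocytes, 12 were higher and 0 lower, with a median of 0.69. Vtn, vitronectin, had 1.48 and Azgp1, a zinc-binding glycoprotein, 1.34. The alpha-1 antitrypsin genes did not follow: Serpina1b had −0.10, Serpina1c −0.29, Serpina1e −0.35 and Serpina1a −0.01, in a family whose copies share sequence.

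Genes of cholesterol synthesis and of the endoplasmic reticulum were higher to a smaller degree. Of 20 cholesterol genes tested, 12 were higher and 0 lower, with a median log2 ratio of 0.62; with mitochondrial and ribosomal protein genes left out of the totals, 4 were higher. Fdps, which makes farnesyl diphosphate, had 1.13 and Pmvk, a kinase of the mevalonate pathway, 1.21, while Srebf2, the factor that drives the pathway, had −0.12. Of 32 genes of protein entry, folding and stress in the endoplasmic reticulum, 8 were higher and 1 lower, with a median of 0.37; relative to the median gene 14 were higher and 1 lower, and with mitochondrial and ribosomal protein genes left out of the totals 4 were higher and 2 lower. The cochaperones Sdf2l1 and Dnajb9 each had 0.98, and the translocon subunit Sec61g had 0.21. Of 18 enzymes of urea, amino acid, glucose and fatty acid metabolism, 7 were higher and 0 lower, with a median of 0.44, and on those other totals 4 were higher and 1 lower.

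**Figure D3:**
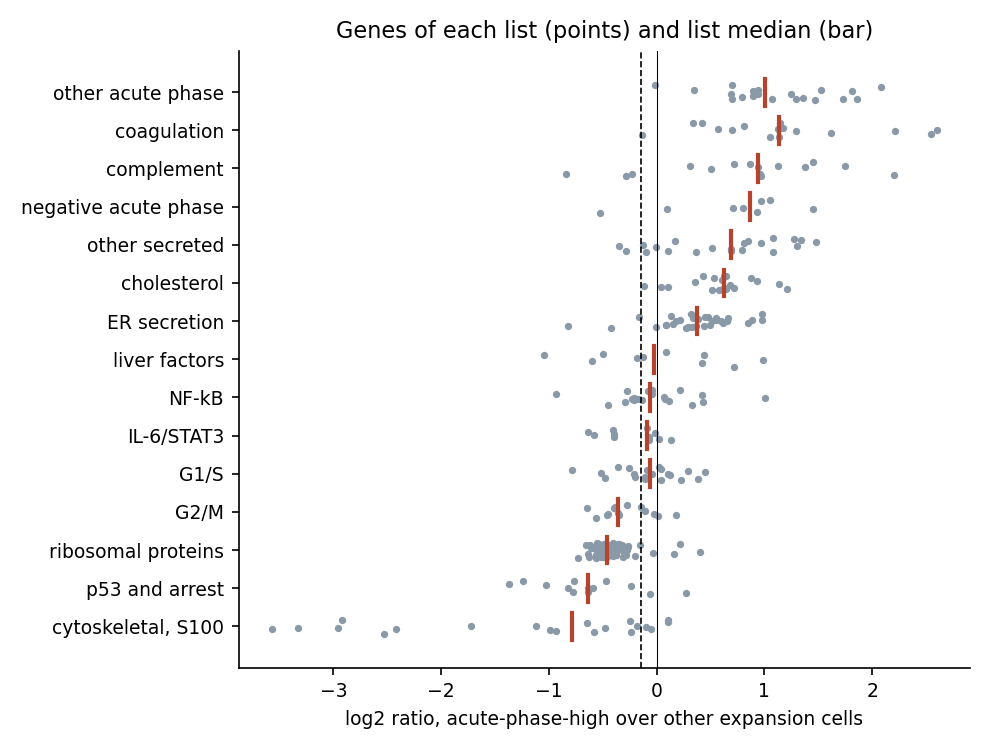
Each point is the log2 ratio of 1 tested gene, acute-phase-high over other expansion cells, grouped by gene list, with a bar at the median of the list. The solid line marks 0 and the dashed line the median of all genes tested, −0.14. The medians run from 1.13 for coagulation and 1.01 for other acute phase genes to −0.64 for p53 and arrest genes and −0.79 for cytoskeletal and S100 genes.

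The signalling genes that act on acute phase promoters differed little on total UMIs. Of 11 genes tested in IL-6 family signalling, 0 were higher and 1 was lower, with a median log2 ratio of −0.09. Stat3 was at 67.7 CPM in the acute-phase-high cells and 72.0 CPM in the other cells, a ratio of −0.09 (−0.27 to 0.09). The receptor subunit Il6st had −0.07, and Socs3, a feedback inhibitor, −0.39 with an interval of −0.87 to 0.06. Lif, a cytokine of this family, was the lower gene, with −0.64. No UMI of the ligands Il6 or Osm was found in either set. With mitochondrial and ribosomal protein genes left out of the totals, 0 genes of this list were higher and 5 lower, with a median of −0.28. Over all genes those totals gave 279 higher and 2338 lower, with a median of −0.37. In the induction library, by the same rule, 0 of 12 were higher and 3 lower, with a median of −0.45. Over all genes tested there, 3.34% were higher and 19.5% lower, with a median of −0.29. Transcript levels of these genes do not measure the activity of their proteins.

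Of 20 genes of NF-kB signalling tested, 1 was higher and 1 lower, with a median log2 ratio of −0.06. Nfkbia, the inhibitor that NF-kB itself induces, was at 473 CPM in the acute-phase-high cells and 522 CPM in the other cells, a ratio of −0.14 (−0.21 to −0.07). Sod2, the mitochondrial superoxide dismutase, was the higher gene, at 697 CPM in the acute-phase-high cells and 347 CPM in the other cells, and Vcam1, an adhesion molecule, the lower one, at 93.7 and 179 CPM. Among 11 chemokines, Ccl20 and Cxcl3 were higher, with ratios of 0.66 and 0.94, and Ccl5 and Ccl7 were lower, with −2.97 and −0.78. Ccl5 had no UMI in 149 of 179 acute-phase-high cells and in 835 of 1012 other cells, and Ccl7 in 137 and 803. Both lower ratios therefore rest on a minority of cells.

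Among 10 liver transcription factors tested, 2 were higher and 2 lower, against 6.4% and 12.3% of all genes tested. Foxa3 had a log2 ratio of 0.72 and the bile acid receptor Nr1h4 0.99. Foxa1 and Foxa2, forkhead factors that open liver chromatin, had −0.60 and −1.05. Relative to the median gene 1 of the 10 was lower. With mitochondrial and ribosomal protein genes left out of the totals, 1 factor was higher and 3 were lower, with a median of −0.23. All genes on those totals gave 279 higher and 2338 lower, with a median of −0.37. Cebpb, a C/EBP factor of the acute phase, was at 155 CPM in the acute-phase-high cells and 116 CPM in the other cells, a ratio of 0.42 (0.30 to 0.54) that is under 1.5-fold. Hnf4a, a main regulator of hepatocyte genes, had 0.44, and Nr3c1, the glucocorticoid receptor, −0.13.

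Several of the genes with the lowest ratios belong to the cytoskeleton. Tmsb4x, thymosin beta 4, which holds actin monomers, was at 134 CPM in the acute-phase-high cells and 774 CPM in the other cells, a log2 ratio of −2.53 (−2.65 to −2.41). Per 10000 UMIs it had 0 at the lowest, 1.04 at the median and 14.8 at the highest in the acute-phase-high cells, against 0, 4.16 and 98.7 in the other cells, and 10 of 179 members lay above the median of the other cells. Sprr1a, an envelope protein of stratified epithelium, had −3.28, Marcksl1 −2.58 and Sh3bgrl3 −2.53. Sprr1a had 0 UMIs in 148 of 179 acute-phase-high cells and in 807 of 1012 other cells. Its highest value per 10000 UMIs was 3.55 in the acute-phase-high cells and 46.2 in the other cells, so its ratio rests on a minority of cells. Fscn1, which bundles actin, had −1.86 and Msn, which ties actin to the membrane, −1.63. Sox4, a factor of progenitor cells, was at 71.8 CPM in the acute-phase-high cells and 247 CPM in the other cells. Igfbp3, Tm4sf4, Limd2, Ccl5 and Xist complete the 12, with −1.81, −1.62, −1.58, −2.97 and −2.28. The Ccl5 ratio also rests on a minority of cells, as 835 of 1012 other cells had no Ccl5 UMI. Its highest value per 10000 UMIs was 3.12 in the acute-phase-high cells and 221 in the other cells.

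Lists with such genes held several lower members. Of 20 cytoskeletal, S100, annexin and mesenchymal genes tested, 0 were higher and 11 lower, with a median log2 ratio of −0.79. Hmga2, a chromatin protein of fetal and tumour cells, was at 2.03 CPM in the acute-phase-high cells and 20.4 CPM in the other cells. Of 13 cell cycle inhibitors and p53 targets, 0 were higher and 9 lower, with a median of −0.64, and relative to the median gene 6 were lower. Cdkn1a, the p21 inhibitor, was at 43.6 CPM in the acute-phase-high cells and 113 CPM in the other cells, a ratio of −1.37 (−1.59 to −1.16). Mdm2, which degrades p53 and is induced by it, had −1.24, and Bax, a promoter of cell death, −0.59. Of 88 ribosomal protein genes tested, 0 were higher and 6 lower, which is 6.82% against 12.3% of all genes tested, with a median of −0.46; that list was added after the values had been seen.

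Several levels already differed among cells below the threshold, mostly over the upper bins of the 4-gene share. In 10 bins of about equal size from low to high share, Saa3 was at 5525, 3641, 5285, 5825 and 8336 CPM in the lower 5 bins and at 12480, 18232, 26548, 34781 and 53941 CPM in the upper 5. Over the lower 4 bins neither Saa3 nor Tmsb4x, at 1185, 1299.6, 1029.7 and 1015.7 CPM, kept to 1 direction. Tmsb4x was then at 694.6 CPM in the fifth bin and 132 CPM in the highest. Cebpb was at 92.7 CPM in the lowest bin and 160.2 CPM in the highest, and Stat3 was at 66.8 and 64.4 CPM. Median UMIs per cell were between 21371.5 and 26449 in the bins, with no order.

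**Figure D4:**
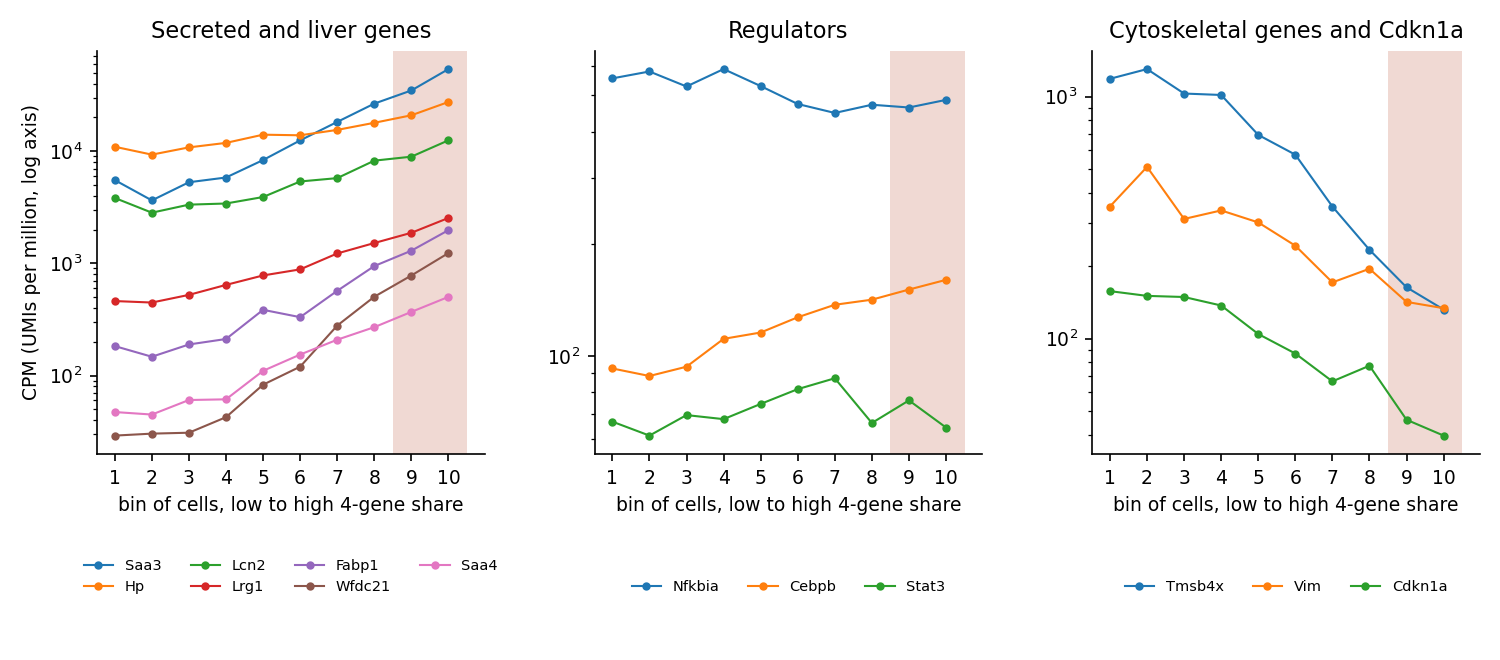
Levels in CPM (log axis) are plotted over 10 bins of expansion cells ordered from low to high share of the 4 genes; the shaded bins 9 and 10 hold the acute-phase-high cells, 60 of 119 cells in bin 9 and all 119 in bin 10. Saa3, Hp, Lcn2, Lrg1, Fabp1, Wfdc21 and Saa4 are higher in the upper bins, Nfkbia and Stat3 change little, and Tmsb4x, Vim and Cdkn1a are lower.

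Within the acute-phase-high cells, levels still differed along the share. In 4 groups of members by their share, Saa3 was at 38944, 43649, 54129 and 60960 CPM from low to high, while Saa2 was at 473, 613, 1320 and 3672 CPM. Hp was at 22565, 24542, 26512 and 28954 CPM, and C3, the central complement protein, was at 8717, 7738, 8636 and 8465 CPM. Saa2 is one of the genes that order these groups.

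The genes most like the 4-gene share over cells were taken by Spearman rank correlation over the 1191 expansion cells, each thinned to 2000 UMIs. Saa3 had a rho of 0.65, Trf 0.52, Wfdc21 0.51, Lcn2 0.49 and Lrg1, a secreted glycoprotein, 0.48. In 1231 induction cells the same genes had 0.64, 0.32, 0.47, 0.48 and 0.30. The cells of 1 library share its handling and each cell's total is the base of both values, so these are descriptions.

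The acute-phase-high cells were checked against markers. Of 9 hepatocyte markers tested, 6 were higher and 0 lower, with a median log2 ratio of 0.80. Hnf4a, Ahsg and Serpina1a did not meet the rule. Alb, Ttr, Trf, Apoa1, Ahsg and Fgb were already counted in the acute phase lists above, so this is not a separate check. Summed over the list, macrophage and Kupffer cell markers had 2 UMIs in the acute-phase-high cells, with 10 of 12 at 0, and neutrophil and lymphocyte markers had 0 UMIs. Stellate cell markers summed to 263 CPM in the acute-phase-high cells and 462 CPM in the other cells, with 6 of 11 at 0. Of 2 tested, 1 was higher and 1 lower. Most of the sum was Rgs5, the lower one, at 221 and 434 CPM. Cholangiocyte markers summed to 116 and 127 CPM, and endothelial markers to 28.7 and 41.5 CPM, with the acute-phase-high cells first. The name given to these cells is a range of 1 score and not a cell type.

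Clusters made without the 4 genes placed the cells unevenly. Of 179 members, 108 were in cluster 0, led by the 4 genes of the rule and Spp2. There they were 41.1% of 263 cells, with an exact Clopper-Pearson interval of 35.1 to 47.3%. Another 40 were in cluster 1, led by the mitotic genes Top2a and Ccnb1, where they were 16.8% of 238 cells, and 26 were in cluster 3, led by Slc6a14 and H19, where they were 18.8% of 138 cells. Cluster 2, led by S100a6 and Serpine2, held 0 members in 116 cells, which allows up to 3.13%. Cluster 4, led by Ccl5, held 2 in 289 cells and cluster 5, led by Slc22a30, held 3 in 147 cells.

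Cells were also sorted by Xist, the RNA of the inactive X chromosome, and by 4 Y-linked genes: an Xist cell had at least 3 Xist UMIs and at least 3 times as many as Y-linked UMIs, a Y cell the reverse, and the remainder were unassigned. Xist cells were 21 of 179 acute-phase-high cells (11.7%, 7.41 to 17.4%) and 340 of 1012 other cells (33.6%, 30.7 to 36.6%). Y cells were 33.0% of the acute-phase-high cells and 37.1% of the other cells, and unassigned cells were 55.3% and 29.3%. In cluster 5, where Xist was among the leading genes, 146 of 147 cells were Xist cells, against 20 of 263 in cluster 0. The Xist shares and the spread over clusters are therefore not separate observations. The labels do not say whether animals of both sexes were used, so an animal and these marks cannot be told apart here.

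The main gene groups were read again inside each of these sets. Of the acute phase genes outside the rule, 19 of 20 tested were higher within Xist cells, 14 of 20 within Y cells and 17 of 21 within unassigned cells, with median log2 ratios of 1.02, 0.74 and 1.05. Over all genes tested, 6.63%, 6.84% and 6.38% were higher in these sets. Cytoskeletal and S100 genes were lower in 15 of 20, 10 of 20 and 9 of 18, against 13.3%, 8.36% and 10.4% of all genes tested. Saa3 had log2 ratios of 2.46, 1.97 and 1.88, and Cdkn1a −1.35, −1.05 and −1.28, in Xist, Y and unassigned cells. Xist itself had 0.011 within Y cells, which have few Xist UMIs by definition.

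**Figure D5:**
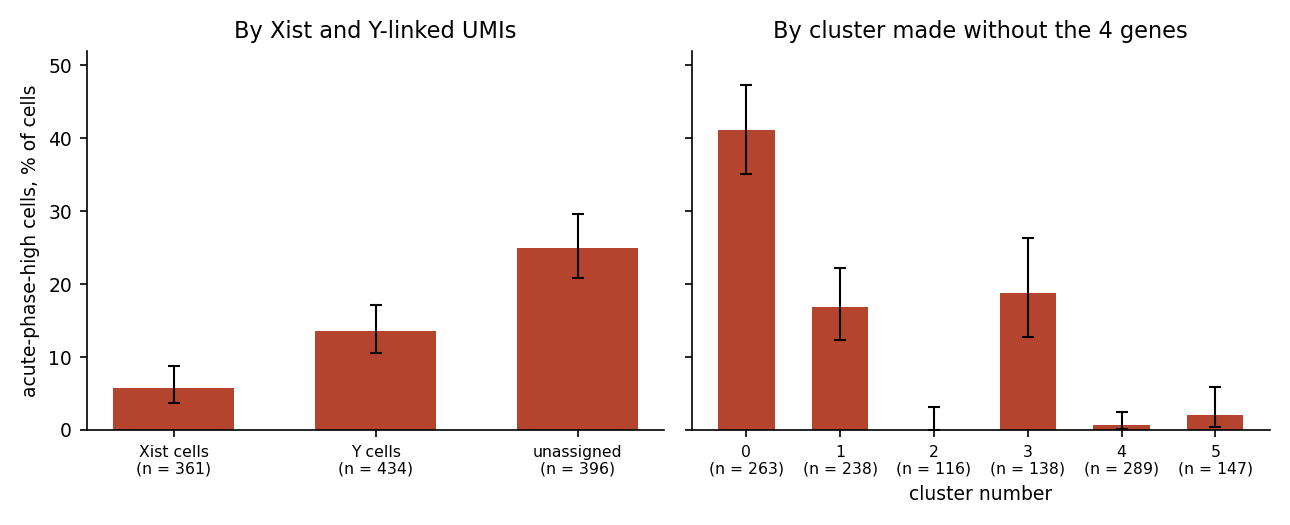
Bars give the acute-phase-high cells as a percent of the cells in each set, for Xist, Y and unassigned cells on the left and for clusters made without the 4 genes on the right, with 95% exact Clopper-Pearson intervals. The share is 5.82% of Xist cells, 13.6% of Y cells and 25% of unassigned cells, and it is 41.1% in cluster 0 and 0 of 116 cells in cluster 2.

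The shares of cells with transcripts of division overlapped within counting error. After thinning every cell to 2000 UMIs, 31 of 179 acute-phase-high cells (17.3%, 12.1 to 23.7%) and 172 of 1012 other cells (17.0%, 14.7 to 19.5%) had UMIs of at least 2 of the G2/M genes. Without thinning the shares were 64.2% and 66.8%. Of 14 G2/M genes tested, 0 were higher and 1 lower, with a median log2 ratio of −0.36. In the sets by Xist and Y-linked UMIs, 0 were higher and 10 of 17 lower within Xist cells, 5 of 17 higher and 0 lower within Y cells, and 0 higher and 6 of 12 lower within unassigned cells; the difference between these sets was not tested. Ccnd1, cyclin D1, was at 342 CPM in the acute-phase-high cells and 590 CPM in the other cells.

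The same rule was applied to the induction library, where the top 15% were 187 of 1245 cells, from 0.234% to 8.49% of UMIs. With the expansion threshold, 141 induction cells (11.3%) would have been above it. There, 241 of 7222 genes tested were higher in the top cells, which is 3.34%, and 1408 were lower, which is 19.5%; the induction cells had fewer UMIs, with medians of 6310 in the top cells and 6834.5 in the others. Of the 428 genes higher in expansion, 127 were higher in induction, which is 29.7% of the expansion list and 52.7% of the induction list, and 9 were lower. Of 819 gene symbols lower in expansion, 407 were lower in induction, 49.7% of that list and 28.9% of the induction list, and 1 was higher.

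Of the 12 largest ratios in expansion, 10 were also higher in induction, and of the 12 lowest ratios, 10 were tested there and 10 were lower. Saa3 was at 30441 CPM in the top induction cells and 4343 CPM in the other induction cells, a log2 ratio of 2.81, and Wfdc21 was at 5069 and 1685 CPM, a ratio of 1.59. Alb had a ratio of 0.64 and Fabp1 of 0.96. G2/M transcripts were found in 3.24% of the top induction cells and 8.70% of the others after thinning, and 10 of 11 tested G2/M genes were lower. The difference between the media in these ratios was not tested, since each medium had 1 library.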

How the data were processed

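The authors deposited raw UMI counts for every gene and barcode of 1 droplet library in each medium. Per the submitters' processing notes, Cell Ranger 2.1.1 and build mm10 were used. How barcodes were called as cells is not given in the sources used here. In all, the files held 1208 expansion and 1275 induction barcodes and listed 28692 genes; 17 and 30 barcodes failed the cell filter, and 4 barcodes occurred in both libraries, 1 of them among the acute-phase-high cells.

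The members and gene lists were chosen with earlier results of these data known, and so support nothing by themselves. UMIs were summed over the cells of a set. Ratios carry exact conditional binomial, CPM exact Poisson and shares exact Clopper-Pearson intervals, at 95%; UMI counting error is all they cover. Counts and medians over a list hold only genes that reached 10 CPM in the set where they were higher, and are descriptions. Serpina3g, Serpina3k and Serpina3m had 0 UMIs in both sets. Ratio code was tested on simulated data. Genes were named by rule: the 4 genes, the 12 largest ratios in each direction at 50 CPM or more without mitochondrial, ribosomal protein and unnamed genes, all genes of 4 lists (other and negative acute phase, IL-6 signalling, liver factors), extremes of other lists at 20 CPM or more, Xist and Y-linked genes, and the 5 genes most like the 4-gene share. Vim was drawn after its values had been seen.

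Thinning was without replacement to 2000 UMIs. Clusters used scanpy 1.11.5 and igraph 0.11.9 (Leiden, resolution 0.6, 15 neighbours, 20 components, 2000 variable genes, without the 4 genes) and are numbered, not named. Doublets were not removed; Scrublet marked 4 cells, 1 a member, too few to call it a working filter. No set of cells known to lack these genes was available, so the level from free RNA was not measured. The scripts ran under Python 3.11.15 with scipy 1.17.1, pandas 2.3.3 and numpy 2.4.6. Promoter windows were matched by symbol. Some genes that met the naming rule are not reported here.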

Additional observations from a re-analysis of the deposited data

Results flagged for a closer look

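Each log2 ratio or median here has the opposite sign in a second group of cells under the same contrast, and no such difference was tested. Reg3g, an antibacterial lectin, had a log2 ratio of −2.31 in the induction library and 0.84 in the expansion library. Pim1, a kinase induced by STAT3, had −1.82 within Xist cells and 0.86 within Y cells. The interleukin 1 and Toll-like receptor list had a median of 0.65 within Xist cells, where 3 of 8 genes were higher, and −0.10 within Y cells, where 1 of 6 was higher and 0 lower. The G1/S list had a median of −0.41 within Xist cells, where 1 of 20 genes was higher and 2 lower, and 0.50 within Y cells, where 5 of 18 were higher and 1 lower, and the G2/M list −1.13 and 0.51. The Xist cells held 21 acute-phase-high cells.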

How the results depend on the processing

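Higher and lower gene counts were 428 and 820. They were 279 and 2338 without mitochondrial and ribosomal protein genes in the totals, 148 and 178 at 2-fold, and 662 and 482 against the median gene. The lower count was 332 with cells thinned to 2000 UMIs, 544 with the top 15% taken within Y cells, and 1573 with no CPM minimum. The acute phase median of 1.01 was 0.76 with the top 15% taken within Y cells and 0.74 for the members within Y cells. The share of Xist cells, 11.7%, was 5.03% with cells chosen by the Orm pair alone, and the G2/M share, 17.3%, was 25.9% in the top 15% taken among Xist cells alone. The causes were not tested. Pim1 reversed to 0.72 with the top 15% taken within Y cells and to 0.86 for the members within Y cells, and Xist to 0.011 there. Over 1540 comparisons of 70 named genes with an alternative, 1447 kept their direction and side of the threshold, 25 moved past it, 65 dropped below it and 3 reversed. No paired analysis was possible because each medium had 1 library. Low genes are limited by depth: 3 UMIs are 0.677 CPM in the acute-phase-high cells and 0.12 CPM in the other cells.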

Other observations

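Further gene groups were compared between the acute-phase-high and the other expansion cells. Of 9 genes of epithelial defence tested, 4 were higher and 0 lower, against 6.4% and 12.3% of all genes tested: Pigr, the receptor that carries antibodies across epithelium, had a log2 ratio of 0.64, and Slpi, a protease inhibitor of mucosa, 0.83. Within Xist cells Pigr had −0.44. Of 19 interferon response and antigen presentation genes, 3 were higher and 0 lower; H2-Q10, a secreted class I molecule of liver, was at 673.5 CPM in the acute-phase-high cells and 250.1 CPM in the other cells, while B2m, the light chain of class I, had −0.13. Of 9 genes of iron and copper handling, 2 were higher, the zinc and iron importer Slc39a14 with 0.61 and Tfr2, a sensor of transferrin, with 0.68. Fth1, ferritin heavy chain, had 0.08.

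Of 10 genes of the NRF2 antioxidant response, 0 were higher and 3 lower, against 6.4% and 12.3% of all genes tested. Gclc, which makes glutathione, was among the lower ones, with −0.70. Relative to the median gene 1 of the list was higher and 2 lower. The summed level of the list was 1547 CPM in the acute-phase-high cells and 1299 CPM in the other cells. Of 6 bile duct and progenitor genes tested, 0 were higher and 3 lower. Cd24a, a surface marker of progenitors, was at 237 CPM in the acute-phase-high cells and 447 CPM in the other cells, whereas Spp1, osteopontin, had 0.20 and Sox9 −0.01. In the induction library Spp1 was at 96.4 CPM in the top 15% by the same rule and 754 CPM in the other induction cells, a log2 ratio of −2.97. The imprinted growth factor Igf2 had 0.71 and the imprinted RNA Meg3 1.28 in expansion, and within Y cells these were 1.14 and 1.47. Over the 3 imprinted genes tested in expansion, 2 were higher and 0 lower. Within Y cells 3 of 3 were higher, and within Xist cells 1 of 3. Within unassigned cells 1 of 3 was higher and 1 lower, with a median log2 ratio of 0.12.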
